A study of Mus musculus with 17 samples.

Results

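The nuclear genes that encode the subunits of oxidative phosphorylation were described across 17 RNA-seq libraries of CD8 T cells from mouse spleen. A gene was taken by its symbol, when it began with Nduf and a subunit letter and digit, with Uqcr, with Atp5, or with Cox and a digit from 4 to 8, or when it was Ndufab1, Sdha, Sdhb, Sdhc, Sdhd, Cyc1 or Cycs. The rule matched 89 symbols, of which Ndufs5-ps was left out as a pseudogene, so that 88 of the 24594 genes in the count tables were members. They comprised 37 genes of complex I, 4 of complex II, 9 of complex III, 20 of complex IV, 17 of complex V and cytochrome c. No measured value entered the rule.

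Oxidative phosphorylation passes electrons from NADH (complex I) and succinate (complex II) through ubiquinone to complex III, on to the small carrier cytochrome c and then to complex IV, which reduces oxygen. Complexes I, III and IV pump protons out of the mitochondrial matrix, and complex V, the ATP synthase, makes ATP as the protons flow back. Most subunits are encoded in the nucleus, while a small core of hydrophobic subunits is encoded by mitochondrial DNA. In T cells the pathway is known for its role in memory and long-lived states, and activated T cells raise it together with glycolysis.

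The cells are labelled as spleen CD8 T cells of the genotype CD8+Thy1.1+, with 1 targeted gene per group. Rosa KO served as the control, with 5 libraries, and Asxl1 KO, Dnmt3a KO and Tet2 KO had 4 libraries apiece. Asxl1 acts in Polycomb deubiquitination, Dnmt3a methylates DNA de novo, and Tet2 oxidises methylated cytosine. The title of the series places these regulators of clonal hematopoiesis in the stemness of CD8 T cells under immunotherapy. The labels give no age, treatment, time or editing method, and the marker Thy1.1 is listed for every group. They also do not say whether replicates came from separate mice, so the p-values rest on the variation among these libraries alone, and part or all of it may be technical.

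The numbers that the labels give to libraries formed 3 blocks with gaps between them, called runs here. Run 1 held Rosa KO 1, Asxl1 KO 1 and Dnmt3a KO 1 and 2. Run 2 held Asxl1 KO 2, Dnmt3a KO 3 and 4 and Tet2 KO 1 and 2, with no Rosa KO library. Run 3 held Rosa KO 2 to 5, Asxl1 KO 3 and 4 and Tet2 KO 3 and 4. Total counts ranged from 6625833 to 40701203 per library. Cd8a, which encodes the defining chain of CD8 T cells, ranged from 641 to 1240 CPM (counts scaled by library size) and was present in all 17 libraries. The level of each targeted gene did not separate its own knockout from Rosa KO. Asxl1 counted 82.1 to 160.8 CPM in Rosa KO and 70.3 to 146.3 CPM in Asxl1 KO, Dnmt3a 27.6 to 102.6 CPM in Rosa KO and 71.7 to 114.9 CPM in Dnmt3a KO, and Tet2 138.3 to 185.8 CPM in Rosa KO and 125.1 to 254.3 CPM in Tet2 KO. These ranges overlapped, and a count over a whole gene does not show which part was targeted, so the knockout labels were not checked by these counts and groups are named by label throughout. Asxl1 KO 1 stood apart from the other libraries: its 6 listed genes for erythroid cells and platelets summed to 2979 CPM. This sum was 467 to 704 CPM in the rest of run 1 and 27.0 to 189 CPM in runs 2 and 3, so all of run 1 was high. Asxl1 KO 1 held the highest value of 33 of the 82 members tested, so several results are also given without it.

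Levels of the members differed widely when compared per kilobase of exonic sequence. The highest mean level was that of Cox6a1, a small subunit of complex IV, at 443 ± 204 CPM per kilobase (SD, n = 17). Uqcrh, the hinge protein of complex III, followed at 382 ± 119, and Atp5e, the epsilon subunit of ATP synthase, at 376 ± 176. These 3 values lay within an SD of each other and their order was not resolved. The median member stood at 143 CPM per kilobase for complex IV and 139 for complex V, against 44.3 for complex I, 52.2 for complex III and 63.3 for complex II. Cycs, which encodes somatic cytochrome c, stood at 21.6 ± 6.7.

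Several tissue-restricted isoforms were near or at 0, and a filter on low counts left 82 of the 88 members for testing. Cox7b2 and Cox8c, isoforms known from testis, had no count in any library. Cox4i2, known from lung, had 2 counts in total, and Ndufa4l2, known for its induction under hypoxia, had 3. The muscle isoforms Cox8b and Cox6a2 had 35 and 92 counts, and these 6 genes were not tested. Cox7a1 and Cox6b2 were tested with 203 and 237 counts in total, at no more than 2.87 and 2.71 CPM in any library. The ubiquitous partners were plentiful: Cox4i1 ranged from 150 to 397 CPM, Cox6a1 from 91.8 to 460 CPM and Cox8a from 55.3 to 330 CPM. Ndufs5 reached only 7.75 CPM, and its pseudogene Ndufs5-ps reached 10.7 CPM, so that reads of this pair may have been split between them.

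Promoter windows from RefSeq (GRCm38.p6, 250 bases before to 50 bases after a gene's start) were found for 70 members. They were searched on both strands for short words of factors known to act on respiratory genes, and the bases just before the start are shown for a member of each kind that the results turn on. The word of nuclear respiratory factor 1 (NRF1), GCGCATGC, stood in 11 of the 70 members (15.7%) and in 3.05% of 27025 genes. The ETS word CCGGAAGT, which GA-binding protein reads, stood in 5 members (7.14%) and 4.31% of genes. The YY1 word AAGATGGC stood in 10 members (14.3%) and 3.19% of genes. Of those 10, 7 belonged to complex I, which held 32 of the 70 members with a window. The SP1 word GGGCGG stood in 30 members (42.9%) and 38.2% of genes, and the estrogen-related receptor (ERR) word CAAGGTCA in 4 members (5.71%) and 1.76% of genes. A word in a window is a description and not a binding site. The 110 bases before the start are printed 5′ to 3′ on the strand of the gene, which is the minus strand for all 4 genes, with the matched word in capitals.
Cycs (NRF1 word, chr6:50566570-50566679): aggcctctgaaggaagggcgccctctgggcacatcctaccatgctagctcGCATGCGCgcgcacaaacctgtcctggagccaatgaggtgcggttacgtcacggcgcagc
Atp5g2 (NRF1 word, chr15:102671048-102671157): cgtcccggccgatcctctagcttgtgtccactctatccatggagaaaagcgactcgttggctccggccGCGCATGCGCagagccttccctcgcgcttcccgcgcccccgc
Atp5g3 (ERR word, chr2:73911327-73911436): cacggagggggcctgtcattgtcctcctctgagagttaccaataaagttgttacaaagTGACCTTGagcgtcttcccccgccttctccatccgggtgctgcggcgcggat
Uqcrh (ETS word, chr4:116075071-116075180): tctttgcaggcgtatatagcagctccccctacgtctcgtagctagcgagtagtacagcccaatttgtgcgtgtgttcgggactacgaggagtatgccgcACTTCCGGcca
The start used for Atp5g3 lies 1138 bases inside the full span of the gene, so its stretch precedes a transcript start within that span, while the other 3 starts are the ends of the spans. The words in Cycs, Atp5g3 and Uqcrh are the reverse complements of the words searched. In Atp5g2 the NRF1 word and its reverse complement overlap, from 42 to 33 bases before the start. Atp5g2 and Atp5g3 encode the same mature subunit c of ATP synthase and thus carried different words in these windows. None of the 10 members that passed a test below held the NRF1 or YY1 word, 2 held the ETS word, 2 the SP1 word and 1 the ERR word. These 10 genes are few, and their counts were not tested against the shares of the 70 members.

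Run separated the libraries more plainly than the knockout labels did. The summed CPM of all 88 members was 4168 to 6266 in the 5 libraries of run 2, 7137 to 11419 in run 1 and 6592 to 11411 in run 3. Run 2 therefore lay below every library of the other runs, in each of its groups, and it held the lowest library of 68 of the 82 members tested. As a share of raw counts, the members took 0.450 to 0.655% in run 2 and 0.659 to 1.12% in the others. In bulk libraries, fewer cells of a type and less RNA per cell cannot be told apart.

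Within run 3, where Rosa KO, Asxl1 KO and Tet2 KO could be set side by side, the knockout libraries were higher for complexes I, III, IV and V. Complex I summed to 2071, 1973, 1880 and 1490 CPM in Rosa KO 2 to 5, to 2634 and 2258.5 CPM in Asxl1 KO 3 and 4, and to 2641 and 2416 CPM in Tet2 KO 3 and 4. Complex III summed to 728, 699, 589 and 512 CPM in the Rosa KO libraries, to 1032 and 847 CPM in Asxl1 KO and to 1030 and 997 CPM in Tet2 KO. No Rosa KO library of run 3 reached a knockout library for these sums. The ratio of the Asxl1 KO mean to the Rosa KO mean in run 3 was 1.32 for complex I, 1.49 for complex III, 1.43 for complex IV and 1.32 for complex V. The same ratio for Tet2 KO was 1.36, 1.603, 1.45 and 1.43 in that order. Complex II and cytochrome c stood closer to the control, at 1.08 and 0.920 in Asxl1 KO and 1.06 and 0.973 in Tet2 KO. With 4 libraries against 2, no permutation test could pass a threshold of 0.05, and none was run on these sums.

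**Figure D1:**
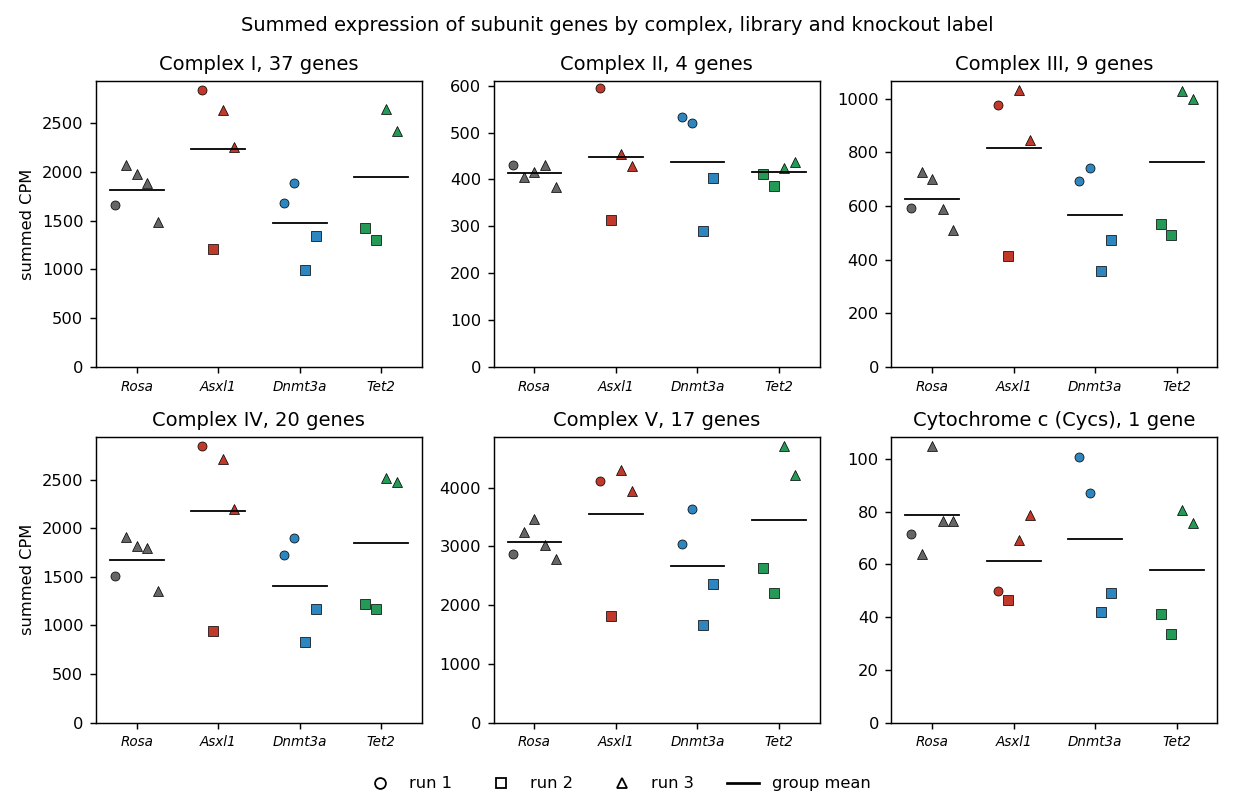
Summed CPM (vertical axis, linear from 0) of the subunit genes of each complex and of Cycs in every library, by knockout label (horizontal axis). Circles, squares and triangles are runs 1, 2 and 3, and bars are group means. All run 2 libraries lie low for complexes I, III, IV and V, and the knockout triangles of run 3 lie above the Rosa KO triangles there.

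The balance between complexes I, IV and V shifted little. Complex II, at 3.73 to 6.97% of the members' summed CPM, and cytochrome c, at 0.437 to 1.30%, varied more in proportion. Complex V made up 36.1 to 42.2% of the members' summed CPM, complex I 21.5 to 25.6% and complex IV 19.4 to 24.9%. Complex II made up 4.81, 4.90, 5.52 and 5.82% in the Rosa KO libraries of run 3. It made up 4.05 and 4.39% in Asxl1 KO 3 and 4 and 3.73 and 4.12% in Tet2 KO 3 and 4, below all 4 controls of that run. Outside run 3 the share of complex II was 5.21 to 6.97%. This share is taken within a library and does not depend on the scaling between libraries.

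**Figure D2:**
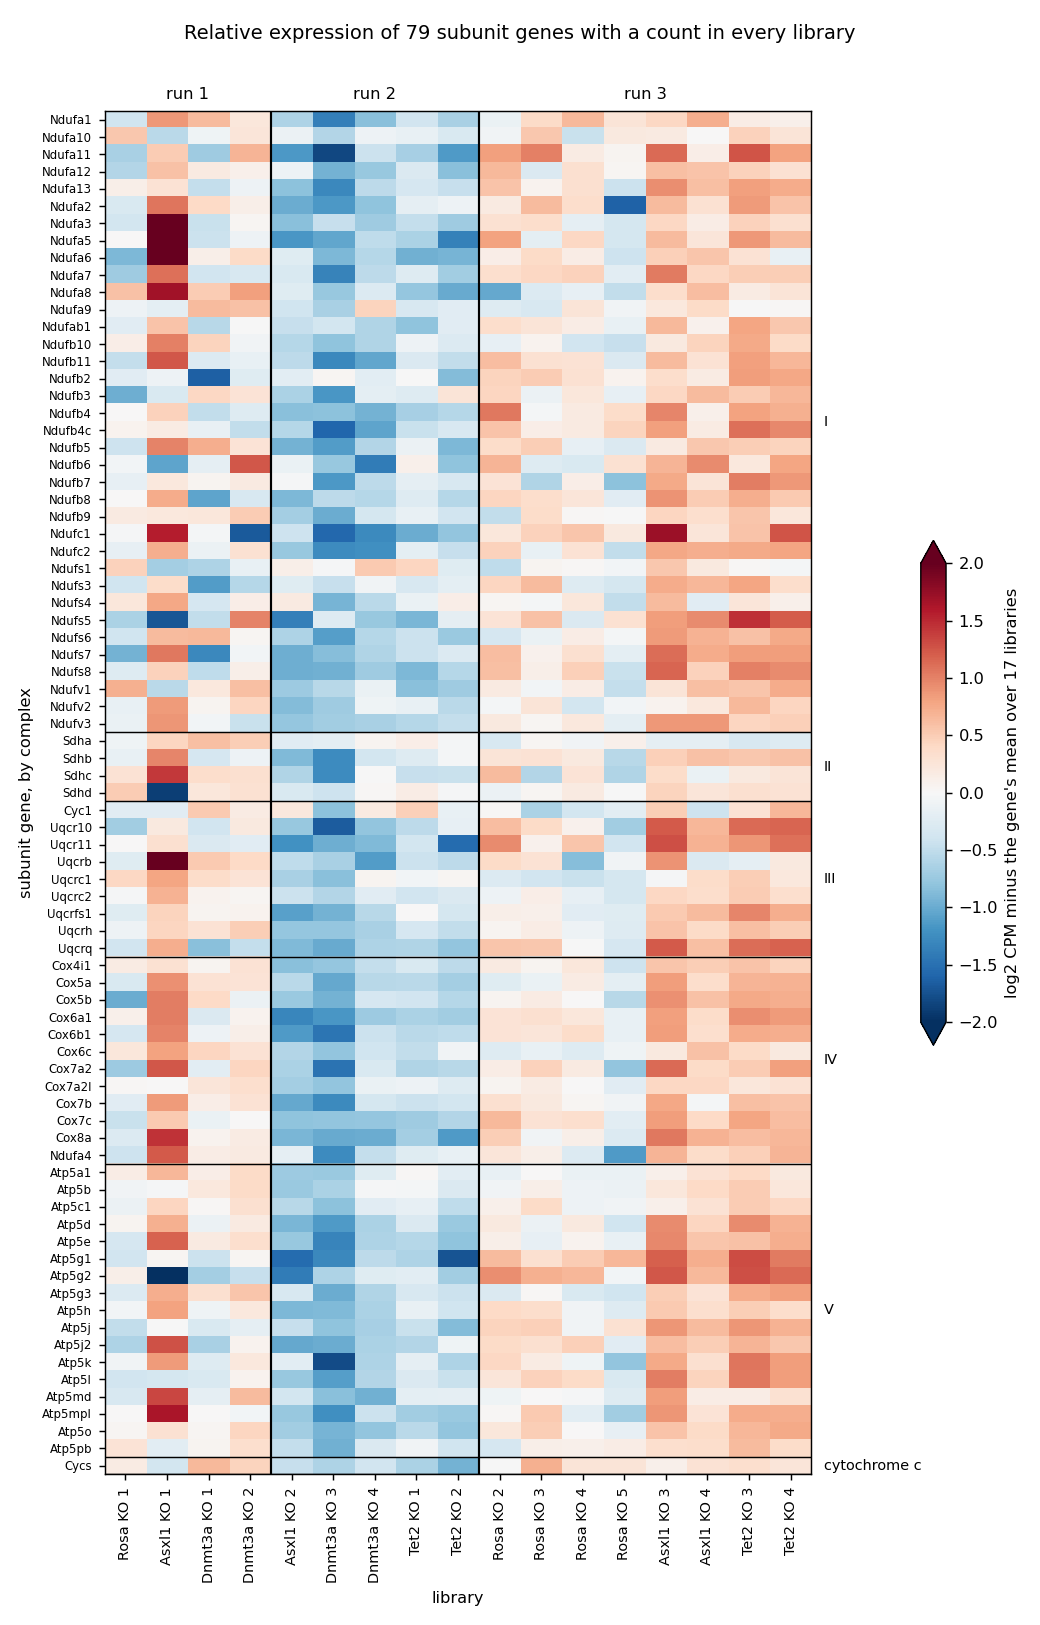
Heat map of 79 members with a count in every library (rows, by complex) over the 17 libraries (columns, by run). Colour is log2 CPM minus the gene's own mean over the 17 libraries, and the scale ends at 2 in each direction. Run 2 is low nearly throughout, Asxl1 KO 1 departs from its neighbours in both directions, and the 4 knockout libraries of run 3 are high for most rows.

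In Asxl1 KO against Rosa KO, with run as a term, 6 of the 82 members tested rose and none fell at an adjusted p under 0.05. Of all 13881 genes tested, 0.814% rose and 1.64% passed in either direction. The 6 were Atp5e and Atp5g3 of complex V and Cox5a, Cox5b, Cox8a and Ndufa4 of complex IV. The median log2 fold change of the members was 0.47, that of all genes tested was 0.00, and 74 members had a positive value. Unadjusted p was under 0.05 for 39 members and for 15.7% of all genes, and DESeq2 called 15 members and 4.88% of all genes. Within run 3 alone, 40 members lay higher in both Asxl1 KO libraries than in all 4 Rosa KO libraries and none lay lower in both, against 14.0% of all genes that lay higher in this way. The count of 6 became 0 without Asxl1 KO 3 and 3 without Rosa KO 1, and it was 5 without Asxl1 KO 1, where the median was 0.35. Of all genes, 0.563, 1.79 and 1.6% passed in these fits, in the same order. Without the run term no member and 0.166% of all genes passed in edgeR. There 8 members had an unadjusted p under 0.05, and the share of all genes at that p was not counted.

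In Tet2 KO against Rosa KO, 8 members rose and none fell, while 0.987% of all genes rose and 1.47% passed in either direction. They were Uqcrh, Uqcrfs1 and Uqcr10 of complex III, Cox5a and Cox5b of complex IV, and Atp5d, Atp5e and Atp5g3 of complex V. The median of the members was 0.54 on the log2 scale, that of all genes was -0.02, and 79 members had a positive value. Unadjusted p was under 0.05 for 48 members and for 12.2% of all genes, and DESeq2 called 13 members and 2.93% of all genes. Within run 3, 56 members lay higher in both Tet2 KO libraries than in all 4 Rosa KO libraries and none lay lower, against 13.5% of all genes that lay higher. The count of 8 fell to 1 without any of Tet2 KO 1, Tet2 KO 3, Tet2 KO 4, Dnmt3a KO 2 or Rosa KO 5, to 2 without Rosa KO 4, to 3 without Rosa KO 1, to 4 without Dnmt3a KO 3 and to 5 without Asxl1 KO 3. Of all genes, 0.23 to 0.856% passed in the fits that left 1 member, and 0.664, 1.37, 1.05 and 1.24% in the others, in that order. Without the run term no member and 0.166% of all genes passed. Then 1 member had an unadjusted p under 0.05, where the share of all genes was not counted, and the median of the members was 0.11.

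In Dnmt3a KO against Rosa KO, edgeR called no member, DESeq2 called none, and 9 of 82 members had an unadjusted p under 0.05. Of all genes, 0.216% passed in edgeR, 1.08% in DESeq2 and 8.03% at the unadjusted p, so the members lay near the background. The median of the members was 0.22 with the run term, with 62 positive values, and -0.25 without it. Leaving out single libraries gave medians of 0.10 to 0.28, the lowest without Dnmt3a KO 4, where 3 members had an unadjusted p under 0.05. In that fit 0.161% of all genes passed at the adjusted p, and their share at the unadjusted p was not counted. The median was 0.14 without Asxl1 KO 2. This comparison had little overlap in runs, since Dnmt3a KO shared run 1 with a single Rosa KO library and had none in run 3. In run 1 the members summed to 7775 and 8774 CPM in Dnmt3a KO 1 and 2 and to 7137 CPM in Rosa KO 1. In run 2, Dnmt3a KO 3 and 4 had 4168 and 5790 CPM, and no control library stood beside them.

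**Figure D3:**
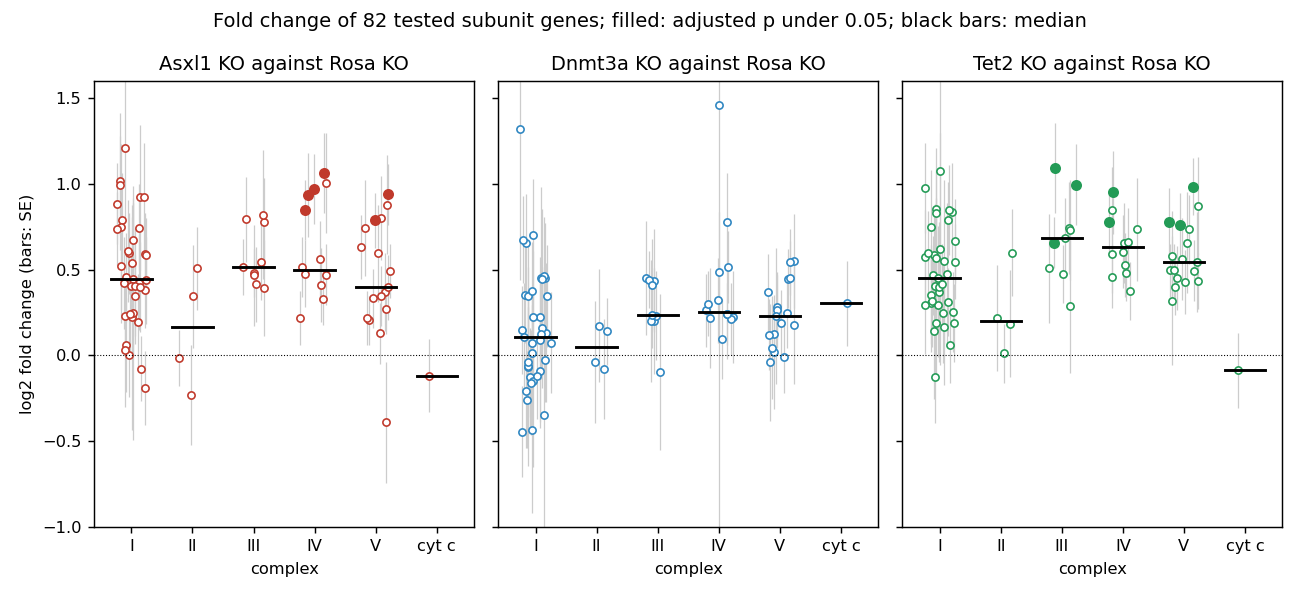
Log2 fold change against Rosa KO (vertical axis, with SE) of the 82 tested members by complex (horizontal axis), from the edgeR fit with run as a term. Filled points passed an adjusted p of 0.05 and black bars are medians over all members of the complex. The medians of complexes I, III, IV and V lie above 0 in each panel, and the 2 low-count genes Cox7a1 and Cox6b2 fall outside the axis where their values pass its ends.

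The knockouts were also compared with each other in the same fit. No member passed in Asxl1 KO against Tet2 KO, where 0.562% of all genes passed, in Asxl1 KO against Dnmt3a KO, where 0.353% passed, or in Dnmt3a KO against Tet2 KO, where 0.0937% passed. Unadjusted p was under 0.05 for 2, 18 and 16 members in that order, against 7.21, 11.0 and 5.60% of all genes, and DESeq2 called 0, 1 and 0 members, against 1.28, 1.58 and 0.526% of all genes. The median differences of the members were -0.09, 0.30 and -0.30 on the log2 scale. They rested in part on single libraries. For Asxl1 KO against Tet2 KO the median was 0.05 without Asxl1 KO 2, -0.14 without Asxl1 KO 1, -0.02 without Asxl1 KO 4 and 0.12 without the run term. It was also nearer to 0, at -0.05, without Dnmt3a KO 2, Tet2 KO 1 or Tet2 KO 3. For Asxl1 KO against Dnmt3a KO it was 0.15 without Asxl1 KO 1, where 2 members in place of 18 had an unadjusted p under 0.05, while that count was 10 without Dnmt3a KO 1, 12 without Dnmt3a KO 2 and 29 without Dnmt3a KO 4. It was 27 without Asxl1 KO 2. For Dnmt3a KO against Tet2 KO the count of 16 was 5 without Dnmt3a KO 3, 8 without Dnmt3a KO 1, 10 without Tet2 KO 1 and 26 without Dnmt3a KO 4, where the median was -0.45. The smallest p in the comparison of Asxl1 KO with Dnmt3a KO was that of Ndufb11, a supernumerary subunit of complex I, at 0.85 ± 0.25 with an adjusted p of 0.178. A difference between Asxl1 KO and Tet2 KO was thus not detected for any member, which does not show that they were alike.

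Complex I had no member that passed in edgeR, with 13 at an unadjusted p under 0.05 in Asxl1 KO, 3 in Dnmt3a KO and 12 in Tet2 KO, and DESeq2 called 4, 0 and 4. At the unadjusted p these were 35.1, 8.11 and 32.4% of the 37 genes, and the share in Dnmt3a KO was near that of all genes. Ndufv1, which binds NADH and flavin, had log2 fold changes of 0.06 ± 0.28 (SE) in Asxl1 KO and 0.31 ± 0.29 in Tet2 KO. Ndufs1, the largest subunit, stood at 0.00 ± 0.25 and -0.12 ± 0.27. Both rested on Asxl1 KO 1: within run 3 the Asxl1 KO values of Ndufv1 and Ndufs1 were 0.47 and 0.48, with both libraries above all 4 controls, and within run 1 they were -1.25 and -1.15. The core subunits Ndufs7 and Ndufs8, which carry iron-sulfur clusters toward the quinone, had values of 0.92 ± 0.32 and 0.59 ± 0.24 in Asxl1 KO and 0.75 ± 0.33 and 0.67 ± 0.25 in Tet2 KO. Without Asxl1 KO 1 the Asxl1 KO value of Ndufs7 was 0.55. Ndufv2, which carries an iron-sulfur cluster beside Ndufv1, and Ndufs3, of the arm that links it to the membrane, stood at 0.35 ± 0.24 and 0.54 ± 0.27 in Asxl1 KO and 0.60 ± 0.24 and 0.29 ± 0.28 in Tet2 KO. Ndufs8 counted 91.8, 65.7, 83.9 and 44.7 CPM in Rosa KO 2 to 5, 135 and 83.2 CPM in Asxl1 KO 3 and 4, and 122 and 116 CPM in Tet2 KO 3 and 4. Its Tet2 KO libraries of run 3 lay above all controls of that run, while an Asxl1 KO library lay among them. The smallest adjusted p-values in complex I were those of Ndufs6 in Asxl1 KO (0.88 ± 0.24, adjusted p = 0.0553) and Ndufb7 in Tet2 KO (0.98 ± 0.26, adjusted p = 0.0597), both accessory subunits.

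The largest fold change of complex I in Asxl1 KO, that of Ndufa6 at 1.21 ± 0.41 (adjusted p = 0.129), rested on a single library and was 0.64 without it. Ndufa6 counted 146 CPM in Asxl1 KO 1 and 20.8, 34.3 and 36.3 CPM in Asxl1 KO 2 to 4, against 13.2 to 32.3 CPM in Rosa KO. Ndufa3, another accessory subunit, counted 293 CPM in Asxl1 KO 1 and 28.9 to 68.6 CPM in the other libraries of the group. The same library was low for Sdhd, at 19.1 CPM against 56.3 to 95.3 CPM in Asxl1 KO 2 to 4. Asxl1 KO 1 therefore departed from its group upward for some members and downward for others. At the other end, Ndufa10 stood at -0.19 ± 0.21 in Asxl1 KO, and at 0.00 without that library.

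Complex II also had no member that passed in edgeR, with an unadjusted p under 0.05 for 1 member each in Asxl1 KO and Tet2 KO, and DESeq2 called none. Sdha, the flavoprotein that oxidises succinate, stood at -0.02 ± 0.16 in Asxl1 KO, 0.14 ± 0.19 in Dnmt3a KO and 0.01 ± 0.17 in Tet2 KO. Within run 3 it counted 170, 219, 203 and 229 CPM in Rosa KO 2 to 5, 188 CPM in both Asxl1 KO libraries, and 170 and 179 CPM in Tet2 KO 3 and 4. These knockout values lay within the range of the controls. Sdhb, the iron-sulfur subunit of the same enzyme, had 0.51 ± 0.24 in Asxl1 KO and 0.60 ± 0.26 in Tet2 KO, with adjusted p of 0.306 and 0.321. Sdhd, a membrane anchor, stood at -0.23 ± 0.29 and 0.18 ± 0.31. Its negative value rested on Asxl1 KO 1, without which it was 0.17. Within run 3 Sdhd lay above all 4 controls in both libraries of Asxl1 KO and of Tet2 KO, at 0.32 and 0.27.

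Complex III passed the test in Tet2 KO for 3 of its 9 members. Uqcrfs1 (NCBI gene 66694, chr13:30540312-30545316), the Rieske iron-sulfur protein, counted 37.4, 48.5, 47.5, 38.2 and 37.5 CPM in Rosa KO 1 to 5 and 44.7, 34.7, 87.9 and 74.0 CPM in Tet2 KO 1 to 4. The 2 Tet2 KO libraries of run 3 lay above every Rosa KO library, and the other 2, from run 2, did not. Its log2 fold change was 0.99 ± 0.24 (adjusted p = 0.0305). Uqcrh (66576, chr4:116066965-116075070) counted 185, 207, 220, 185 and 166 CPM in Rosa KO and 157, 142, 301 and 279 CPM in Tet2 KO, for a fold change of 0.66 ± 0.15 (adjusted p = 0.0244). Uqcr10 (66152, chr11:4701968-4704344), a small accessory subunit, counted 37.2, 92.1, 78.3, 63.5 and 36.9 CPM in Rosa KO and 41.7, 53.4, 132.02 and 134.4 CPM in Tet2 KO, for 1.09 ± 0.27 (adjusted p = 0.0344). The calls of Uqcrfs1, Uqcrh and Uqcr10 passed in 9, 11 and 9 of 17 fits that left out a library. As with Uqcrfs1, both genes were above all controls in run 3 and among or below them in run 2. Uqcrh and Uqcr10 overlap other annotated genes, Gm12854 and Gm51883, and whether counting used the strand is unknown, so their values are uncertain to that extent. In Asxl1 KO edgeR called no member of complex III, with 6 at an unadjusted p under 0.05, and DESeq2 called 2. The 3 genes stood there at 0.54 ± 0.22, 0.48 ± 0.14 and 0.79 ± 0.25. The largest value of the complex in Asxl1 KO was that of Uqcrb, a subunit beside the quinone site, at 0.82 ± 0.38 (adjusted p = 0.286), and it was 0.46 without Asxl1 KO 1. The core protein Uqcrc1 and cytochrome c1 (Cyc1) stood at 0.68 ± 0.23 and 0.73 ± 0.29 in Tet2 KO and did not pass either.

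Complex IV had the most members that passed in Asxl1 KO, 4 of 14. Cox5a (NCBI gene 12858, chr9:57517328-57532427), a matrix-side subunit, counted 84.9, 89.0, 96.0, 118 and 92.5 CPM in Rosa KO 1 to 5. It counted 200, 72.7, 187 and 135 CPM in Asxl1 KO 1 to 4 and 72.6, 65.7, 169 and 171 CPM in Tet2 KO 1 to 4. Outside run 2 these knockout libraries lay above every control, and in run 2 they lay below every control. Cox5a rose in both, by 0.85 ± 0.18 in Asxl1 KO (adjusted p = 0.0106) and 0.77 ± 0.18 in Tet2 KO (adjusted p = 0.0298). These calls passed in 16 and 10 of 17 fits that left out a library. In Dnmt3a KO it counted 129, 128, 51.8 and 71.8 CPM, high in run 1 and low in run 2, for 0.51 ± 0.21 (adjusted p = 0.502).

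Cox5b (12859, chr1:36691487-36693388), which binds zinc beside Cox5a, counted 37.3, 76.5, 82.7, 74.7 and 50.6 CPM in Rosa KO, 151, 44.2, 140 and 111 CPM in Asxl1 KO and 57.0, 49.6, 124.9 and 122.8 CPM in Tet2 KO. It rose by 1.06 ± 0.23 in Asxl1 KO (adjusted p = 0.0178) and by 0.95 ± 0.24 in Tet2 KO (adjusted p = 0.0456), and these knockout libraries lay above all controls in runs 1 and 3. The Asxl1 KO call passed in 14 of 17 fits that left out a library and the Tet2 KO call in 4 of 17. Cox8a (NCBI gene 12868, chr19:7215158-7217616) is a small membrane subunit. It counted 100, 169, 115, 130.8 and 100 CPM in Rosa KO and 330, 63.7, 250 and 196 CPM in Asxl1 KO, and rose by 0.97 ± 0.20 (adjusted p = 0.0123), a call that passed in 15 of 17 such fits. Its Tet2 KO value of 0.61 ± 0.21 did not pass (adjusted p = 0.194). Ndufa4 (17992, chr6:11900372-11907450), once assigned to complex I and now known as a complex IV subunit, counted 63.5, 99.3, 91.4, 69.9 and 38.4 CPM in Rosa KO and 196, 74.6, 135 and 108 CPM in Asxl1 KO. It rose by 0.94 ± 0.24 with an adjusted p of 0.0484, and passed in 5 of the 17 fits that left out a library. Cox4i1, the largest nuclear subunit, stood at 0.33 ± 0.15 in Asxl1 KO and 0.48 ± 0.16 in Tet2 KO and did not pass. Nor did Cox6b1, Cox7a2 and Cox7b, the widely expressed partners of restricted isoforms, at 0.56 ± 0.22, 1.01 ± 0.29 and 0.41 ± 0.22 in Asxl1 KO and 0.65 ± 0.23, 0.74 ± 0.30 and 0.59 ± 0.23 in Tet2 KO.

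Complex V held the genes with the smallest adjusted p-values in both comparisons. Atp5g3 (NCBI gene 228033, chr2:73908447-73912464) counted 104, 103, 128, 102 and 95.6 CPM in Rosa KO 1 to 5. It counted 208, 100, 176 and 152 CPM in Asxl1 KO 1 to 4, and 100.6, 93.3, 211 and 221 CPM in Tet2 KO 1 to 4. These knockout libraries lay above every control in runs 1 and 3 and among or just below them in run 2. It rose by 0.98 ± 0.17 in Tet2 KO (adjusted p = 0.00201), and this call passed in all 17 fits that left out a library. In Asxl1 KO it rose by 0.79 ± 0.16 (adjusted p = 0.0110), passing in 16 of 17 such fits, and in Dnmt3a KO it had 0.54 ± 0.19 (adjusted p = 0.413).

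Atp5e (67126, chr2:174461075-174464101) counted 113, 155, 127.3, 150 and 129 CPM in Rosa KO, 323, 84.2, 279 and 211 CPM in Asxl1 KO and 96.7, 81.99, 214 and 236 CPM in Tet2 KO. It rose by 0.94 ± 0.18 in Asxl1 KO (adjusted p = 0.00543) and by 0.76 ± 0.19 in Tet2 KO (adjusted p = 0.0362). The Asxl1 KO call passed in 16 of 17 fits without a library and the Tet2 KO call in 6 of 17. Atp5d (66043, chr10:80138698-80145828), the delta subunit of the central stalk, counted 135.9, 149, 120, 149 and 99.3 CPM in Rosa KO and 106, 77.5, 250 and 211 CPM in Tet2 KO, and rose there by 0.78 ± 0.20 (adjusted p = 0.0435). This call passed in 6 of 17 fits without a library. It overlaps the annotated gene Cbarp. The catalytic subunits had smaller values: Atp5b, the beta subunit, stood at 0.20 ± 0.14 in Asxl1 KO and 0.50 ± 0.15 in Tet2 KO, and Atp5a1, the alpha subunit, at 0.27 ± 0.14 and 0.50 ± 0.15. Neither passed, nor did Atp5c1, the gamma subunit of the stalk, at 0.22 ± 0.16 and 0.40 ± 0.17.

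**Figure D4:**
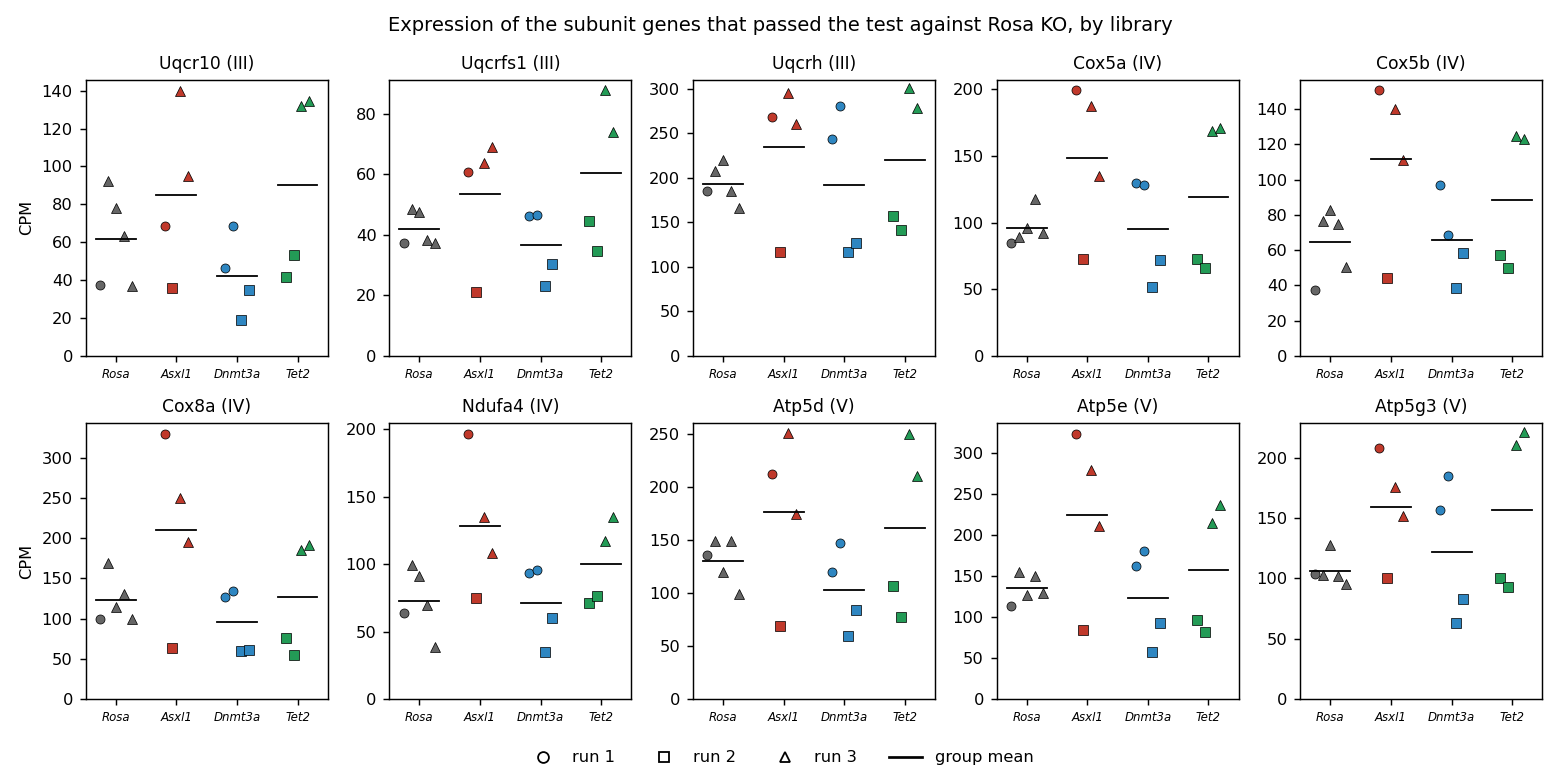
CPM (vertical axes, linear from 0) in every library of the 10 members that passed the test against Rosa KO in Asxl1 KO or Tet2 KO, with the complex in parentheses. Circles, squares and triangles are runs 1, 2 and 3, and bars are group means. The knockout triangles of Tet2 lie above the Rosa triangles in each panel, while the squares of run 2 lie low in every knockout.

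The 3 genes of subunit c, whose mature protein forms the rotor ring, had different shares in different runs. Of their summed CPM, Atp5g3 made up 24.1 to 32.0% in Rosa KO 2 to 5 and 29.0 to 35.8% in the knockout libraries of run 3, ranges that overlapped. In run 1 it made up 37.2% in Rosa KO 1, 55.5 and 53.5% in Dnmt3a KO 1 and 2 and 66.2% in Asxl1 KO 1. Atp5g2 made up 39.7% in Rosa KO 1, 22.4 and 21.5% in the Dnmt3a KO libraries and 6.202% in Asxl1 KO 1, where it counted 19.5 CPM against 38.5, 240 and 160 CPM in Asxl1 KO 2 to 4. Atp5g1 made up 14.0 to 25.8% in run 2 and 26.4 to 40.8% in run 3. Atp5g2 had log2 fold changes of -0.39 ± 0.35 in Asxl1 KO and 0.32 ± 0.38 in Tet2 KO, and Atp5g1 had 0.37 ± 0.23 and 0.56 ± 0.24, none of which passed. The sign of Atp5g2 in Asxl1 KO rested on Asxl1 KO 1, with -2.51 within run 1, 0.36 within run 3 and -0.01 without that library. Within run 3 Atp5g1, Atp5g2 and Atp5g3 stood at 0.44, 0.36 and 0.61 in Asxl1 KO and at 0.64, 0.60 and 1.01 in Tet2 KO, where each lay above all 4 controls in both libraries.

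Cycs encodes the mobile carrier between complexes III and IV, also a trigger of apoptosis once released. It did not rise in Asxl1 KO or Tet2 KO as most members did. It counted 71.6, 63.7, 105, 76.5 and 76.4 CPM in Rosa KO 1 to 5, 49.8, 46.6, 69.2 and 78.8 CPM in Asxl1 KO and 41.3, 33.4, 80.7 and 75.7 CPM in Tet2 KO. The groups overlapped, also within run 3. Its log2 fold changes were -0.12 ± 0.21 in Asxl1 KO, 0.30 ± 0.25 in Dnmt3a KO and -0.09 ± 0.22 in Tet2 KO. Cycs was not alone in this, since Sdha stood at -0.02 in Asxl1 KO and 0.01 in Tet2 KO. The 6 members with 2744 to 3825 exonic bases, Cycs among them, had medians of 0.14 in Asxl1 KO and 0.12 in Tet2 KO.

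Genes beside the subunits in the same pathway were read from lists. Of 48 assembly factors, edgeR called none in any comparison with Rosa KO, with 8 at an unadjusted p under 0.05 in Asxl1 KO, 4 in Dnmt3a KO and 4 in Tet2 KO, and DESeq2 called 2, 0 and 2. At the unadjusted p these were 16.7, 8.33 and 8.33% of the list, near or below the shares of all genes. Their medians were 0.36 in Asxl1 KO, -0.08 in Dnmt3a KO and 0.17 in Tet2 KO. None of 17 genes of the tricarboxylic acid cycle and pyruvate dehydrogenase passed in edgeR or DESeq2, with 1, 2 and 3 at an unadjusted p under 0.05 in the same order and medians of 0.10, 0.12 and 0.16. None of 21 genes of mitochondrial biogenesis and mitochondrial DNA expression passed in edgeR, with 2, 1 and 0 at an unadjusted p under 0.05, while DESeq2 called 2, 0 and 0, and the medians were -0.18, -0.01 and -0.06. Among these are factors whose words were searched above, named after their values were seen, while Sp1 is not in the list. In Asxl1 KO, Nrf1 stood at -0.45 ± 0.23, Gabpa at -0.26 ± 0.15, Yy1 at -0.21 ± 0.20 and Esrra at -0.12 ± 0.43. Positive values were held by 6 of the 21 genes in Asxl1 KO, 10 in Dnmt3a KO and 9 in Tet2 KO. Of 10 carriers and pores of the mitochondrial membranes, 1 rose in Tet2 KO, the ADP/ATP carrier Slc25a5 (0.64 ± 0.16, adjusted p = 0.0469). There 2 carriers had an unadjusted p under 0.05, and DESeq2 called 1. For Asxl1 KO and Dnmt3a KO edgeR called none, with 1 and 3 at an unadjusted p under 0.05 and DESeq2 calls for 0 and 1. The medians of the carriers were 0.06, 0.32 and 0.38. At the unadjusted p the carriers stood at 10, 30 and 20% of their list, in the order used above. The tricarboxylic acid cycle list stood at 5.88, 11.8 and 17.6% and the biogenesis list at 9.52, 4.76 and 0%. These compare with 15.7, 8.03 and 12.2% of all genes. For Dnmt3a KO and Tet2 KO the carriers and the tricarboxylic acid cycle list lay above all genes, each on 2 or 3 genes.

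Values of other gene groups stood beside those of the members. All 20 proliferation genes had positive values in each of the 3 comparisons, with medians of 0.94 in Asxl1 KO, 0.81 in Dnmt3a KO and 1.03 in Tet2 KO, and the cell cycle genes Ccnb2, Ccna2 and Tpx2 rose in Tet2 KO. In Asxl1 KO and Dnmt3a KO edgeR called none of them, with 9 and 3 at an unadjusted p under 0.05, and DESeq2 called 4 and 1. In Tet2 KO 13 had an unadjusted p under 0.05 and DESeq2 called 4. At the unadjusted p these were 45, 15 and 65% of the list in Asxl1 KO, Dnmt3a KO and Tet2 KO. All genes stood at 15.7, 8.03 and 12.2%. The summed CPM of the proliferation genes in run 3 was 1367 to 1778 in Rosa KO, 1762 and 1992 in Asxl1 KO and 3703 and 3254 in Tet2 KO. The 12 B cell markers summed to 528 to 3038 CPM in Rosa KO, 630 to 1321 in Asxl1 KO, 666 to 2370 in Dnmt3a KO and 151 to 2683 in Tet2 KO, with none at 0 throughout. None of them was called by edgeR or DESeq2 or had an unadjusted p under 0.05 in any comparison with Rosa KO. In run 3 these markers stood at 2742 to 3038 CPM in Rosa KO, 658 and 630 in Asxl1 KO and 2683 and 2612 in Tet2 KO. The 7 NK cell markers summed to 2378 to 3319 CPM in Rosa KO, 742 to 992 in Asxl1 KO, 805 to 1670 in Dnmt3a KO and 1706 to 2372 in Tet2 KO. Of these, the receptor genes Klrb1c and Klre1 fell in all 3 knockouts, and the granzyme gene Gzma fell in Asxl1 KO and Dnmt3a KO. Of the 7 CD8 T cell markers, Cd3d, Cd3g and Cd2 rose in Asxl1 KO and Cd3d rose in Tet2 KO. With the mean level of the B cell markers as a covariate, added after seeing the data, 5 members passed in Asxl1 KO and 8 in Tet2 KO. Of all genes, 1.25 and 1.53% passed in that fit. Within run 3 the level of the B cell markers and the Asxl1 KO label went together and cannot be told apart. The part of proliferation and of NK cell markers in the results for the members was not tested.

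The members were short genes, and short genes moved in the same direction. Their median exonic length was 1001 bases, against 3254.5 bases for the other genes tested, and 66 of 81 members with a known length lay in the shortest of 5 length classes of equal size, up to 1817 bases. Other genes of that class had median log2 fold changes of 0.24 in Asxl1 KO, 0.17 in Dnmt3a KO and 0.30 in Tet2 KO. The members within it had 0.50, 0.23 and 0.57. Other genes of the longest class had -0.16, -0.10 and -0.18. Across the 81 members, which share libraries and are not independent, the rank correlation of length with log2 fold change was -0.43 in Asxl1 KO, -0.10 in Dnmt3a KO and -0.37 in Tet2 KO. Across the 13010 other genes it was -0.17, -0.12 and -0.24, in the same order. Between 1.21 and 4.40% of a library's counts fell on Rn45s, a gene of ribosomal RNA. The part of gene length in the rise of the members was not tested.

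**Figure D5:**
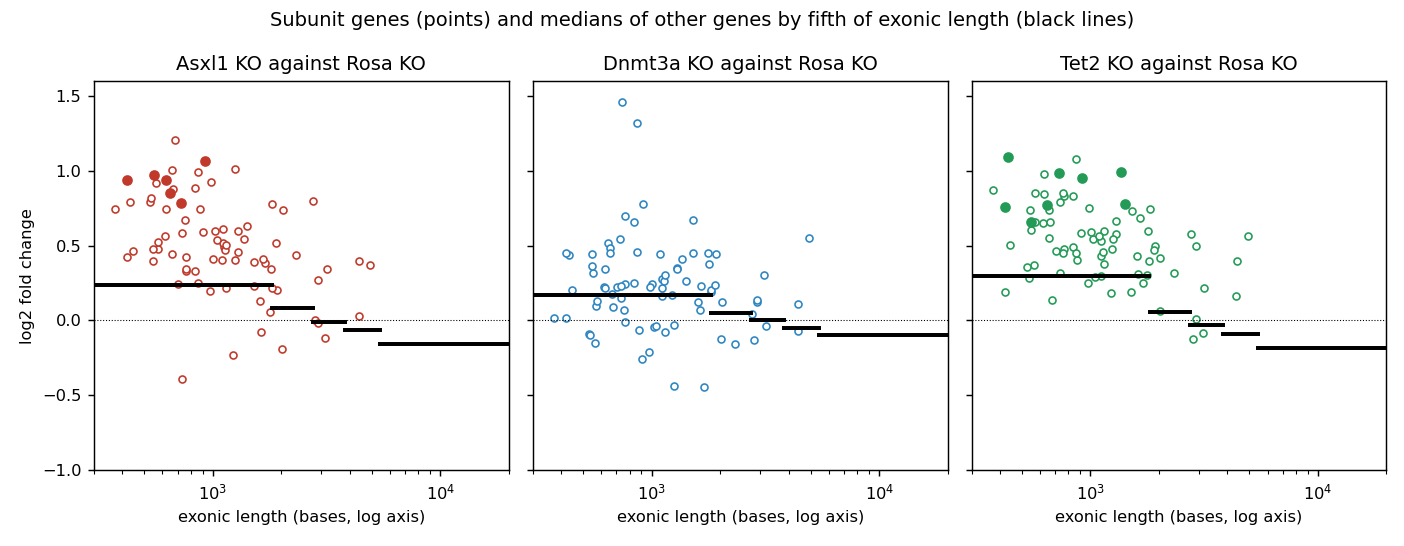
Log2 fold change against Rosa KO (vertical axis) by exonic length in bases (log axis, cut at 300 and 20000) for the tested members (points; filled where they passed). Black lines are medians of the other genes in 5 length classes of equal size. The lines step down from the shortest to the longest class in each panel, and most points of the Asxl1 and Tet2 panels lie above the line of the shortest class.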

How the data were processed

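RNA was sequenced from 17 libraries after a stranded total RNA kit, per the labels' protocols, although the molecule label reads genomic DNA. The authors deposited raw counts per gene, 1 table per library. STAR 2.5.3a, DESeq2 1.26.0 and mm10 are listed, with no role, per the submitters' processing notes. How reads were counted, on which strand and with which annotation was not given in the sources used here, so genes with pseudogene copies or overlapping neighbours (28 members overlap another annotated gene) are uncertain.

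After filterByExpr (minimum count 10, total 15) and TMM scaling, edgeR 4.0.16 in R 4.3.3 fitted a robust quasi-likelihood model of group plus run to the 17 libraries. This left 13881 genes and 11 residual degrees of freedom, and p-values were adjusted by Benjamini-Hochberg over these genes. An adjusted p under 0.05 passed. Runs were read from gaps in the library numbers. Fold changes are given with their SE, derived from the F value. The test was checked on simulated data. Over 28 pairs of libraries of the same group, a chi-square per degree of freedom of the counts was 20.6 to 272, so none was counted as a repeat. Coordinates and overlaps came from RefSeq GRCm38.p6, which matched 24570 of 24594 identifiers and all 88 members. Exonic length, the union of the exons in the GENCODE basic annotation, was found for 87 members, and levels between genes are CPM per kilobase of it.

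The members, the lists and the tests were chosen with earlier results of these data known. Members are named with values where they passed a test, where they are catalytic subunits or isoform partners, or where they were highest or extreme in their complex in Asxl1 KO, except 1 catalytic subunit that is not reported here. Of the genes named beside this rule, Ndufs5, Ndufs6, Ndufb7, Ndufb11 and the factors Nrf1, Gabpa, Yy1 and Esrra were chosen after their values were seen. Alternatives were RLE scaling, DESeq2 1.42.0, no count filter, no run term, the libraries of 2 groups only, a replicate block, each library left out, and single runs. A B cell covariate and the removal of the run 3 libraries of Asxl1 KO or Tet2 KO were added after seeing the data. Same-numbered libraries deviated together (r over 0.1) in 2 of 24 pairs, both within run 1. The deviations were from group means with run not removed, so this check could not decide whether the numbers pair libraries.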

Additional observations from a re-analysis of the deposited data

Results flagged for a closer look

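Within a group, a library was set apart where its gap to the nearest library exceeded Dixon's limit for its group size. Of 180 groups tested, 10 held such a library, and chance gives about 1 in 20. In Asxl1 KO, library 1 was highest for Ndufa3 (293 CPM, others 28.9 to 68.6), Ndufa6 (146 CPM, others 20.8 to 36.3) and Sdha (287 CPM, others 182 to 188). Library 2 of Asxl1 KO was lowest for the sum of complex V (1823 CPM, others 3944 to 4303). Rosa KO 3 was highest for Atp5b (695 CPM, others 591 to 613) and Atp5g3 (128 CPM, others 95.6 to 104), and Rosa KO 1 for Uqcrc1 (78.4 CPM, others 43.1 to 48.6). The remaining 3 were low-count isoforms: Cox6b2 in Asxl1 KO 4 (0.165 CPM, others at 0) and in Dnmt3a KO 2 (2.62 CPM, others up to 0.139), and Cox7a1 in Dnmt3a KO 3 (1.92 CPM, others up to 0.104).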

How the results depend on the processing

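The median log2 fold change of the members was positive in all 28 alternatives for Asxl1 KO against Rosa KO (0.31 to 0.74) and in all 27 for Tet2 KO (0.11 to 0.61), while the counts of members past the threshold moved. In Asxl1 KO the count of 6 became 15 with DESeq2, 12 with no filter on low counts, 0 without the run term, 2 with the libraries of the 2 groups only, 15 within run 1 (13 higher and 2 lower, with a single Asxl1 KO and a single Rosa KO library, assumed to vary like the Dnmt3a KO pair) and 1 without Asxl1 KO 3 and 4. The share of all genes called moved too, from 1.64% to 4.88% with DESeq2, 2.68% with no filter, 0.166% without the run term and 4.44% within run 1. With the libraries of the 2 groups only 1.29% of all genes passed, and 0.63% passed without Asxl1 KO 3 and 4. Leaving out each library gave 0 to 8 members and 0.563 to 2.61% of all genes. The median moved by more than its spread over libraries within run 1 (0.74). In Tet2 KO the count of 8 became 13 with DESeq2, 12 with no filter, 0 without the run term (median 0.11), 2 with the libraries of the 2 groups only, 4 without Asxl1 KO 3 and 4 and 0 without Tet2 KO 3 and 4. The share of all genes was 1.47%, and it was 2.93% with DESeq2, 1.78% with no filter and 0.166% without the run term. It was 1.22% with the libraries of the 2 groups only, 1.27% without Asxl1 KO 3 and 4 and 0.0531% without Tet2 KO 3 and 4. Leaving out each library gave 1 to 11 members and 0.23 to 2.53% of all genes. Within run 3 alone, 7 members (4.42% of all genes) passed in Asxl1 KO and 9 (2.90% of all genes) in Tet2 KO. With the replicate block the counts were 0 in Asxl1 KO and 1 in Tet2 KO, where 0.367 and 0.375% of all genes passed. The median in Dnmt3a KO was -0.25 without the run term.

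Between knockouts, Asxl1 KO against Dnmt3a KO gave 1 call with DESeq2, 2 with no filter and 18 within run 1, where the arm is the single library Asxl1 KO 1 and 9.51% of all genes passed. Its median of 0.30 was 0.66 without the run term, 0.56 within run 1 and -0.0069 within run 2. Asxl1 KO against Tet2 KO gave 1 call without Asxl1 KO 3 and 4, where 0.298% of all genes passed. For Asxl1 KO against Dnmt3a KO, 1.58% of all genes passed with DESeq2 and 1.46% with no filter. With no filter the median of all genes shifted to 0.19 in Asxl1 KO, 0.15 in Dnmt3a KO and 0.13, 0.12 and 0.13 in the pairs of knockouts. The cause of these changes between settings was not tested. Cox7a1 and Cox6b2 had few counts, so at this depth a difference in them could be missed, and neither passed in the main fit. In Tet2 KO, Cox7a1 stood at -5.25 (edgeR adjusted p = 0.308, unadjusted p under 0.05), against the direction of most members. Cox6b2 stood at 2.71 there (adjusted p = 0.685).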
